A study of Mus musculus with 24 samples.

Results

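The apolipoprotein genes were described in mouse liver across sex and ganciclovir (GCV) treatment. The set was a list of 10 gene symbols: the apolipoproteins Apoa1, Apoa2, Apoa4, Apoa5, Apob, Apoc1, Apoc3, Apoe and Apom, and Mttp, whose product loads lipid onto apolipoprotein B. All 10 were among the 21755 genes of the p16-3MR table. In the wild-type table the row labels have lost 9 lower-case letters, and only 3 of the 10, Apoa4, Apoa5 and Mttp, have a label among its 12643 that belongs to a single gene symbol. The other 7 were therefore not assigned a row in wild-type livers, and rows with shared labels are described only under other observations.

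Each table held 12 livers, 3 in each of 4 groups made by sex and by injection of GCV or vehicle (VEH). All p16-3MR mice, treated or not, carried the 3MR cassette, which was placed at the p16Ink4a locus of a bacterial artificial chromosome. Its viral thymidine kinase makes cells with an active p16 promoter sensitive to GCV, and such cells may be of any type in the liver. Treatment of p16-3MR mice began at 16 to 18 months of age and treatment of wild-type mice, which lack the cassette, at 6 months. The wild-type livers were collected after 3 months of treatment. Injections ran for a few consecutive days each month, with alkaline water as vehicle. The GCV dose in the sample labels is 150 mg/kg, and the methods of the study give a lower one. The p16-3MR libraries were batch 1 and the wild-type libraries batch 2, so genotype, age, length of treatment and batch cannot be told apart, and no test was made between the tables.

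Apolipoproteins are the protein part of the particles that carry lipid in blood. Apolipoprotein B forms the frame of very-low-density lipoprotein, which hepatocytes assemble with the help of the microsomal transfer protein, and apolipoproteins A-I and A-II form the frame of high-density lipoprotein. Smaller members move between particles: apolipoprotein E is a ligand for uptake receptors, apolipoprotein C-III slows the breakdown and uptake of triglyceride-rich particles, and apolipoprotein A-V speeds that breakdown.

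Of these genes, 4 lie together on chromosome 9 (GRCm38) within 43340 bases. Apoa1 is at chr9:46228580-46230466 on the plus strand, Apoc3 at chr9:46232933-46235636 on the minus strand, Apoa4 at chr9:46240696-46243459 on the plus strand and Apoa5 at chr9:46268633-46271919 on the plus strand. Apoc3 and Apoa4 point away from each other, with 5059 bases between their starts. Apoc1 and Apoe are neighbours on the minus strand of chromosome 7, with 3448 bases between them, and the other 4 genes stand alone on chromosomes 1 (Apoa2), 3 (Mttp), 12 (Apob) and 17 (Apom). The bases just before the annotated starts of the plus-strand cluster genes (RefSeq, GRCm38.p6, 5′ to 3′) are shown. They were chosen because Apoa4 and Apoa1, unlike Apoa5, had GCV and VEH groups that did not overlap in p16-3MR females. For Apoa1 this depended on how libraries were scaled. The Apoa1 and Apoa4 stretches end at the GENCODE start and the Apoa5 stretch at the RefSeq start. Capitals mark matches, on either strand, to CAAAGTNCA (a type bound by HNF4A and related receptors), TTNNGCAA (a C/EBP type), TATAAA or TGACG.
Apoa1, chr9:46228380-46228579: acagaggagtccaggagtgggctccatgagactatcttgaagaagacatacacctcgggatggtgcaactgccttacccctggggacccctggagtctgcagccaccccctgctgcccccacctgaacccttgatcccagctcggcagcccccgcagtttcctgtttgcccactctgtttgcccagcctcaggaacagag
Apoa4, chr9:46240594-46240695: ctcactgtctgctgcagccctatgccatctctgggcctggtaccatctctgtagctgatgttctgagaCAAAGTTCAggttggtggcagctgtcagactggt
Apoa5, chr9:46268358-46268607: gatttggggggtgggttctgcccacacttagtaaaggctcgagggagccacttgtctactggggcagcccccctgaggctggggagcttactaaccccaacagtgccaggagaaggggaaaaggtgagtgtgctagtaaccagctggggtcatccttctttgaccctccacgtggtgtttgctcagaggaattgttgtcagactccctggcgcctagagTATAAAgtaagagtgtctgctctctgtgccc

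The Apoa4 window held 1 match, to CAAAGTNCA, which began 34 bases before the annotated GENCODE start. Over 32851 RefSeq promoter windows of 250 bases before a start, 1.19% held that motif. The Apoa4 stretch shown has only 102 bases. Counted from the RefSeq start, as in those windows, the match began 182 bases before it. The Apoa5 window held 1 match to TATAAA, 31 bases before its RefSeq start, a motif found in 12.4% of the windows. The 200 bases shown before Apoa1 held no match to the 4 motifs, and neither did the 250 before its RefSeq start. Of these motifs TTNNGCAA occurred in 9.56% and TGACG in 17.8% of all windows. A match is a description of letters and was not tested for binding. The RefSeq table held a promoter for 8 of the 10 genes, not for Apoc1 and Apoc3.

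Together the 10 genes took 2.93% to 3.96% of all counts in 11 of the 12 p16-3MR livers and 0.613% in the GCV-treated female 33. That liver had 64.0% of its counts on mitochondrially encoded genes, against 12.3% to 22.4% in the other 11. In counts outside those genes the share of the 10 genes was 1.70% in female 33 and 3.34% to 4.96% in the others. Values are given as CPM, counts scaled to a common library size, by the TMM method, which set a scaling factor of 0.259 for female 33, 1.80 for the GCV-treated male 32, 1.64 for the VEH-treated male 24 and 0.850 to 1.19 for the rest. The 9 hepatocyte markers read in this table were above 0 in every group. Their summed level was 26950 CPM in male 32 and 41881 CPM in male 24, and 86377 to 159401 CPM in the other 10 livers. The summed level of 12 Kupffer cell and macrophage markers was 6326 CPM in male 32 and 3643 CPM in male 24, above the 210.7 to 1864 CPM of the others. Female 33, male 32 and male 24 stand apart. In whole liver, fewer cells of a type and less RNA per cell cannot be told apart.

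The structural genes of very-low-density lipoprotein did not pass the test for treatment in either sex. Apob, the frame protein of the particle, was measured at 2050, 1284 and 4518 CPM in GCV-treated females and at 4542, 5115 and 3795 CPM in VEH-treated females. GCV-treated females 31 and 33 were below all VEH livers and female 35 lay among them. In males Apob was measured at 2533, 750.7 and 3213 CPM with GCV and at 1641, 3793 and 5093 CPM with VEH, so the groups overlapped there too. Fitted by edgeR, Apob had a log2 fold change of -0.78 (SE 0.75) in females and -0.70 (SE 0.75) in males, with adjusted p = 0.784 and 1.0 by edgeR's quasi-likelihood test. The female value was -0.51 without female 33, -1.43 without female 35 and -0.48 without the 3 livers that stand apart. The male value was -0.31 without male 32, -1.096 without male 34 and -0.63 without the 3 livers.

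Mttp, which transfers triglyceride to nascent apolipoprotein B, was measured at 288.2, 66.4 and 238.0 CPM in GCV-treated females and at 235.9, 167.7 and 158.4 CPM in VEH-treated females. The VEH values all lay inside the range of the GCV values, whose lowest was female 33. In males the values were 98.4, 33.3 and 218.6 CPM with GCV and 77.0, 226.6 and 254.6 CPM with VEH, again with overlap. Its log2 fold change was 0.08 (SE 0.67) in females and -0.67 (SE 0.68) in males. The values were 0.45 and -0.61 without the 3 livers, and in males it was -0.26 without male 32 and -1.50 without male 34.

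Apoa1, the main protein of high-density lipoprotein, was measured at 7615, 6057 and 5404 CPM in GCV-treated females and at 4292, 5027 and 5136 CPM in VEH-treated females. Every GCV female was above every VEH female, by a small margin. This rests on the TMM scaling: before it, female 33 had 7842 counts of 5005760. That is a smaller share than the 32023 of 7160172 in VEH-treated female 27. In males Apoa1 was 7113, 2286 and 7714 CPM with GCV and 3950, 6885 and 6674 CPM with VEH, with the lowest value of each group in the livers that stand apart. The log2 fold change was 0.40 (SE 0.70, approximate 95% interval -0.98 to 1.78) in females, with adjusted p = 0.906 by edgeR. In males it was -0.03 (SE 0.70). Without the 3 livers it was 0.39 in females and 0.13 in males. The female value was 0.25 without GCV-treated female 31 and 0.50 without GCV-treated female 35.

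Apoa2, the second protein of high-density lipoprotein, was 3654, 1163 and 3679 CPM in GCV-treated females and 3843, 2752 and 2898 CPM in VEH-treated females. In males it ranged from 370.9 to 5443 CPM with GCV and from 1114 to 3601 CPM with VEH, and both extremes were GCV-treated males. Apom, which rides on high-density lipoprotein and carries sphingosine-1-phosphate, ranged from 33.99 to 201.1 CPM in GCV-treated females and from 115.7 to 155.8 CPM in VEH-treated females. In males Apom ranged from 29.5 to 84.9 CPM with GCV and from 48.2 to 103.6 CPM with VEH. Treatment groups of both genes overlapped in both sexes, and their log2 fold changes lay between -0.29 and -0.05. Without the 3 livers those in females were 0.17 (Apoa2) and 0.25 (Apom).

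Apoa4 had the highest log2 fold change of the 10 members between GCV- and VEH-treated females, and in males its difference had the opposite sign. Its protein is carried on particles of intestine and liver that are rich in triglyceride. It was measured at 1720, 1961 and 722.7 CPM in GCV-treated females and at 366.3, 387.2 and 277.6 CPM in VEH-treated females. The group means were 1468 ± 657 and 343.7 ± 58.2 CPM (SD, n = 3), and the lowest GCV female was above the highest VEH female. In males the order was the opposite: 482.1, 372.9 and 420.3 CPM with GCV and 944.5, 604.5 and 579.9 CPM with VEH, means of 425.1 ± 54.7 and 709.6 ± 204 CPM. The groups did not overlap in males either.

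By edgeR the log2 fold change of Apoa4 was 2.09 (SE 0.51, approximate 95% interval 1.09 to 3.10) in females, with adjusted p = 0.646 over the 21755 genes. In males it was -0.74 (SE 0.50, interval -1.71 to 0.23), with adjusted p = 1.0. The difference between the 2 responses was 2.83 (SE 0.71, interval 1.44 to 4.23), with adjusted p = 0.976. Neither the female response nor the difference passed the threshold of 0.05 after adjustment by edgeR. DESeq2, the tool the study used, gave 2.14 (SE 0.40, adjusted p = 0.000231) in females and 2.89 (SE 0.57, adjusted p = 0.00274) for the difference, and called both. Limma-voom with quality weights gave adjusted p = 0.106 and 0.160, and called neither.

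In females the log2 fold change of Apoa4 lay between 1.77 and 2.42 when each liver was left out in turn and was 1.78 without the 3 livers that stand apart, with adjusted p between 0.000231 and 0.876 over its 19 alternatives. The male value went from -0.74 to -0.39 without the 3 livers, and the difference between the sexes was then 2.17 (SE 0.58, adjusted p = 0.239 by edgeR). By group mean, the CPM of Apoa4 ran from the highest, in GCV-treated females, through VEH-treated males and GCV-treated males to VEH-treated females. The 2 highest groups overlapped, since the highest VEH male (944.5 CPM) was above the lowest GCV female (722.7 CPM). The 2 lowest overlapped as well, at 372.9 CPM in a GCV male against 387.2 CPM in a VEH female, and the 2 male groups did not.

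**Figure D1:**
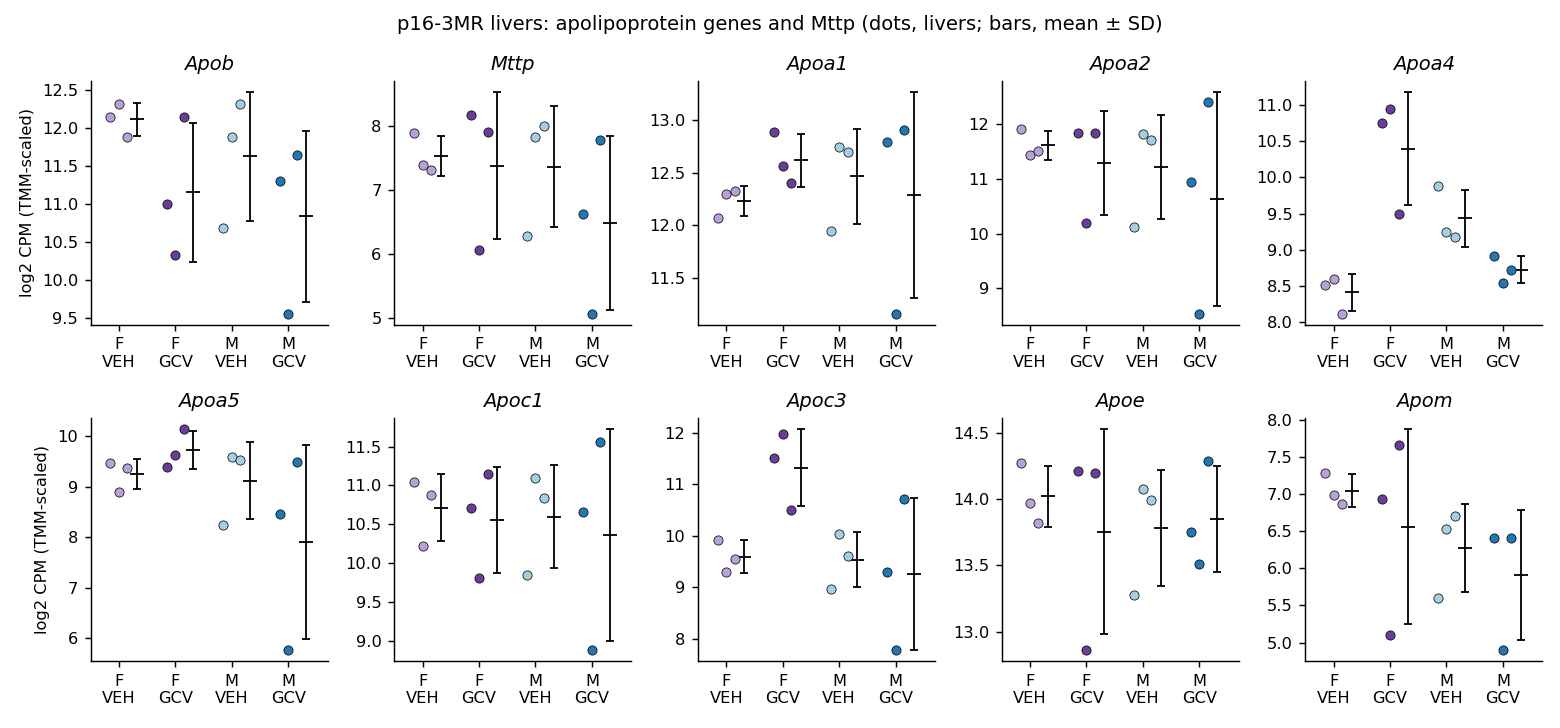
Log2 CPM (TMM-scaled) of the 10 genes in the 12 p16-3MR livers, by sex (F, M) and treatment; each dot is a liver and the bars give the mean ± SD of 3 livers, with a separate axis range for each gene. Apoa4 and Apoc3 in GCV-treated females lie above all VEH-treated females, and a single low male sets the lower end in 8 genes.

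Apoc3, the neighbour of Apoa4 and an inhibitor of lipoprotein lipase, was measured at 2908, 4003 and 1445 CPM in GCV-treated females and at 971.3, 624.1 and 749.1 CPM in VEH-treated females. The means were 2785 ± 1284 and 781.5 ± 176 CPM (SD, n = 3), and the groups did not overlap. In males the values were 624.4, 218.3 and 1685 CPM with GCV and 497.1, 1043 and 781.8 CPM with VEH, and the GCV livers spanned the whole VEH range. Apoc3 had a log2 fold change of 1.83 (SE 0.72, interval 0.42 to 3.25) in females, with adjusted p = 0.667 by edgeR, and 0.12 (SE 0.70) in males. DESeq2 gave adjusted p = 0.130 in females. The difference between the sexes was 1.71 (SE 1.00, interval -0.24 to 3.66), with adjusted p = 0.976 by edgeR. Without the 3 livers the female value was 1.43, the male value 0.33 and the difference 1.098 (adjusted p = 0.832 by edgeR). The difference was 1.21 without male 32 and 2.71 without male 34.

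Apoa5, the fourth gene of the cluster, was 673.2, 787.1 and 1129 CPM in GCV-treated females and 707.2, 477.3 and 661.2 CPM in VEH-treated females, with overlap. In males it was 350.4, 54.0 and 715.9 CPM with GCV and 300.6, 764.8 and 737.9 CPM with VEH. Male 32, at 54.0 CPM, was 20.9 times below the highest liver, the widest range of the 10 genes. Apoa5 had a log2 fold change of 0.49 (SE 0.71) in females and -0.69 (SE 0.71) in males. These were 0.51 and -0.50 without the 3 livers, and in males it was -0.20 without male 32 and -1.57 without male 34. The female value was 0.25 without GCV-treated female 35 and 0.64 without GCV-treated female 31.

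Ratios of counts within a liver do not depend on how libraries are scaled, and they show unequal levels, not which gene differed. The log2 ratio of Apoa4 to Apoa1 was -2.15, -1.63 and -2.90 in GCV-treated females and -3.55, -3.70 and -4.21 in VEH-treated females, so the groups stayed apart. In males it was -3.88, -2.62 and -4.20 with GCV and -2.06, -3.51 and -3.53 with VEH, and the groups overlapped, with male 24 and male 32 highest in their groups. The log2 ratio of Apoc3 to Apoa1 was -1.39, -0.60 and -1.90 in GCV-treated females and -2.14, -3.01 and -2.78 in VEH-treated females. Relative to Apoa1, both genes were higher in all 3 GCV-treated females than in any VEH-treated female, as were 1.86% of all genes. In males the ratio of Apoc3 to Apoa1 overlapped, at -3.51, -3.39 and -2.20 with GCV and -2.99, -2.72 and -3.09 with VEH, and 2 of 3 GCV livers were below every VEH liver. The ratio of Apoa5 to Apoa1 overlapped between the female groups, at -3.50 to -2.26 with GCV and -3.40 to -2.60 with VEH.

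**Figure D2:**
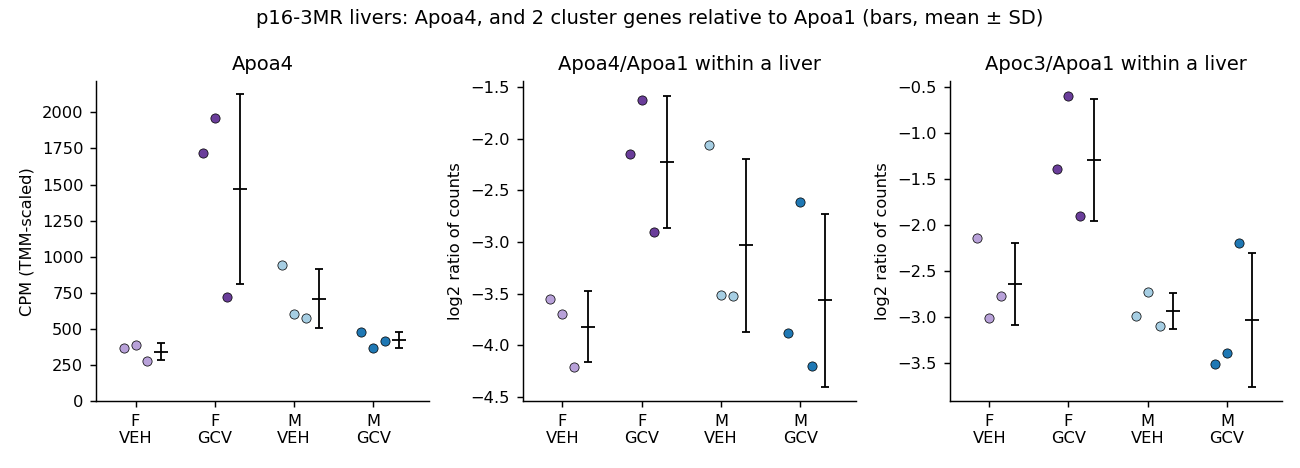
Left, CPM of Apoa4 in the 12 p16-3MR livers; middle and right, the log2 ratio of Apoa4 and of Apoc3 counts to Apoa1 counts in the same livers, with dots for livers and bars for the mean ± SD of 3. In GCV-treated females the Apoa4 to Apoa1 ratio lies between -2.90 and -1.63, above the -4.21 to -3.55 of VEH-treated females.

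Apoc1, an inhibitor of lipid transfer and of particle uptake, ranged from 900.6 to 2279 CPM in GCV-treated females and from 1195 to 2107 CPM in VEH-treated females. In males Apoc1 ranged from 470.0 to 3015 CPM with GCV and from 918.6 to 2197 CPM with VEH. Apoe, next to it on chromosome 7, was measured at 18940, 7437 and 18739 CPM in GCV-treated females and at 19738, 16059 and 14476 CPM in VEH-treated females. Its lowest liver was again female 33. In males Apoe ranged from 11662 to 19980 CPM with GCV and from 9928 to 17264 CPM with VEH. The log2 fold changes of both genes lay between -0.16 and 0.06 in the 2 sexes, with SE of 0.69 and 0.83. The approximate 95% intervals reached from -1.79 to 1.70. Without the 3 livers the values in females were 0.15 (Apoc1) and 0.13 (Apoe).

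Over the whole set, 3 of 10 genes (Apoa1, Apoa4 and Apoc3) were higher in every GCV-treated female than in every VEH-treated female, against 5.91% of all genes. For Apoa1 this depended on the scaling of libraries. In the same comparison 0 were lower, against 7.35%. In males 0 of 10 were higher, against 3.57% of all genes, and 1 (Apoa4) was lower, against 2.83%. Apoa4 was the only member whose groups did not overlap in either sex and pointed in opposite directions, as 40 of the 21755 genes did (0.184%). By edgeR 0 of 10 members passed the adjusted threshold for GCV in females, in males or for the difference, where 0.0% of all genes passed in each. At an unadjusted p under 0.05 there were 2 members (Apoa4 and Apoc3) in females, 0 in males and 1 (Apoa4) for the difference, against 7.37%, 1.91% and 3.78% of all genes. Apoc3 was no longer at that level in females without the GCV-treated female 33, the VEH-treated female 28 or the VEH-treated female 29, which left 1 member (Apoa4). All genes at that level in females numbered 1603. They numbered 933 to 2704 when each liver was left out in turn, lowest without VEH-treated female 29 and highest without female 35. In males they numbered 416, with 198 without VEH-treated male 26 and 1688 without male 24. For the difference they numbered 822, with 483 without VEH-treated male 25 and 1845 without male 24. DESeq2 called 1 member (Apoa4) in females, 0 in males and 1 (Apoa4) for the difference, against 0.701%, 0.0231% and 0.0138% of the genes it tested. The median log2 fold change of the 10 genes was -0.01 in females and -0.17 in males, and that of all genes was 0.0 and 0.04. Without the 3 livers that stand apart, every member except Apob (-0.48) had a positive value in females, from 0.13 (Apoe) to 1.78 (Apoa4). In males the members then went both ways, from -0.63 (Apob) to 0.33 (Apoc3). The medians of all genes were then -0.02 and 0.01.

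**Figure D3:**
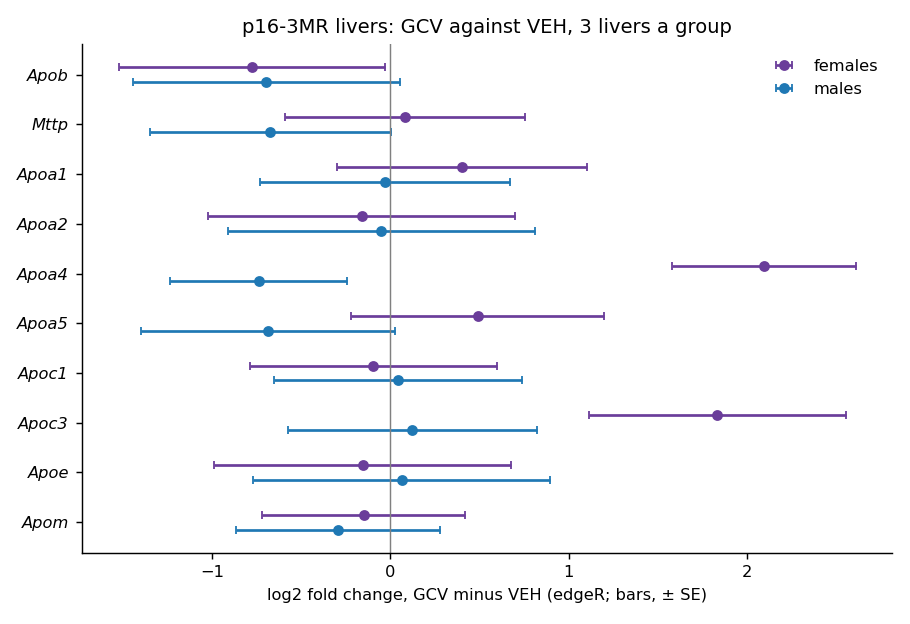
Log2 fold change, GCV minus VEH, of the 10 genes in p16-3MR females and males, as fitted by edgeR over 12 livers; bars are ± SE. Apoa4 is at 2.09 in females and -0.74 in males, Apoc3 is at 1.83 in females, and most other bars cross 0.

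The lowest of the 12 livers was male 32 for 8 of the 10 genes, female 33 for Apoe and a VEH-treated female for Apoa4. The highest value was 2.69 times the lowest for Apoe, 3.38 times for Apoa1, 14.7 times for Apoa2 and 18.3 times for Apoc3. In male 24 the members other than Apoa4 were also below their own mean over the 12 livers, and Apoa4 was above it. The biological coefficient of variation over all genes was 55.8% in p16-3MR livers and 16.6% in wild-type livers.

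**Figure D4:**
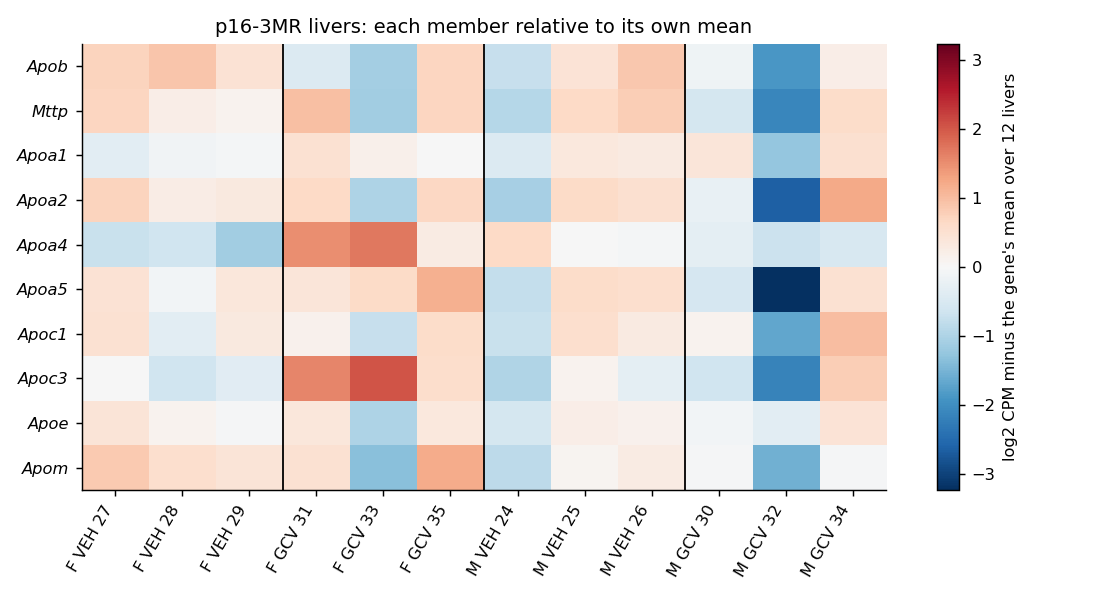
Log2 CPM of each gene minus its own mean over the 12 p16-3MR livers, with livers in columns by group and genes in rows. Male 32 is below the mean in all 10 genes, from -0.34 for Apoe to -3.23 for Apoa5, and Apoa4 and Apoc3 are above it in all 3 GCV-treated females.

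Markers of other liver cells had mostly lower values in GCV-treated females. None passed the adjusted threshold by edgeR or limma-voom, and 1, the sinusoidal endothelial marker Dnase1l3, passed by DESeq2. Over all genes, 7.37% in females and 1.91% in males were at an unadjusted p under 0.05 by edgeR. All 12 Kupffer cell and macrophage markers had a negative log2 fold change (median -1.35, 1 at an unadjusted p under 0.05), with summed levels of 210.7 to 585.1 CPM with GCV and 541.3 to 1448 CPM with VEH. All 8 lymphocyte markers were negative as well (median -2.23, 3 at an unadjusted p under 0.05), at 45.6 to 166.2 CPM with GCV against 144.0 to 280.0 CPM with VEH. Of the sinusoidal endothelial and stellate cell markers 7 of 8 and 6 of 8 were negative, with summed levels of 135.7 to 200.8 against 193.7 to 294.2 CPM and 261.1 to 353.0 against 355.5 to 435.7 CPM. The sinusoidal endothelial markers Kdr, Oit3 and Dnase1l3 were at an unadjusted p under 0.05. Of the 6 cholangiocyte markers 5 were positive (median 0.53, with Sox9 at an unadjusted p under 0.05), and they summed to 38.4 to 143.6 CPM with GCV and 36.2 to 99.0 CPM with VEH. The 9 hepatocyte markers had 5 positive and 4 negative values, with summed levels of 117552 to 159401 CPM with GCV and 94093 to 126701 CPM with VEH. In males 11 of 12 Kupffer cell and macrophage markers and 7 of 8 lymphocyte markers were positive (medians 0.95 and 0.91), with summed levels of 389.8 to 6326 CPM and 145.7 to 555.2 CPM with GCV against 281.0 to 3643 CPM and 67.0 to 338.9 CPM with VEH. All 6 cholangiocyte markers were positive in males (median 1.23, with Krt19 and Epcam at an unadjusted p under 0.05). Their summed levels did not overlap, at 94.1 to 144.1 CPM with GCV and 51.4 to 66.1 CPM with VEH. Of all single genes, 3.57% were higher in every GCV-treated male than in every VEH-treated male. Of the male sinusoidal endothelial, stellate cell and hepatocyte markers 2 of 8, 5 of 8 and 3 of 9 were positive, and the stellate cell marker Col1a1 was at an unadjusted p under 0.05. With the 3 livers left out, the medians of the Kupffer cell, lymphocyte, sinusoidal endothelial and cholangiocyte markers were -1.74, -2.50, -0.95 and 0.74 in females and 1.66, 1.98, -0.25 and 1.79 in males, with 0 called by edgeR. At an unadjusted p under 0.05 were then 8 of 12, 5 of 8, 6 of 8 and 1 of 6 in females, where 9.55% of all genes were. In males 7, 5, 0 and 3 were, where 6.66% of all genes were. The males left out were set apart partly by their Kupffer cell and hepatocyte marker sums, so these counts are no independent test of the markers. Every group except VEH-treated females then also lacked a liver. The stellate cell medians were then -0.54 in females and -0.05 in males, and the hepatocyte medians 0.14 and -0.11. No marker was at 0 in all livers of a group. The part of these markers in the values of Apoa4, Apoc3 and Apoa1 was not tested.

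Females and males of the p16-3MR line were also compared. No member passed the adjusted threshold over both treatments, where 0.303% of all genes did, and 0 of 10 were under an unadjusted p of 0.05 by edgeR (7.05% of all genes) or called by DESeq2 (1.28%). Among VEH-treated mice Apoa4 was lower in every female (277.6 to 387.2 CPM) than in every male (579.9 to 944.5 CPM), as in 5.13% of all genes. Among GCV-treated mice it was higher in every female, as in 3.09% of all genes. Apom was higher in every VEH-treated female (115.7 to 155.8 CPM) than in every VEH-treated male (48.2 to 103.6 CPM), as in 4.22% of all genes. Its log2 difference over both treatments was 0.78 (SE 0.40), with adjusted p = 0.697 by edgeR. All 12 Kupffer cell and macrophage markers had a negative log2 difference, females minus males, over both treatments (median -1.87, 0 called by edgeR and 10 at an unadjusted p under 0.05). With the 3 livers left out, 9 of the 12 were negative (median -0.12, 0 at an unadjusted p under 0.05). The males left out were set apart partly by these same markers. Among VEH livers 11 of 12 were negative (median -0.47, 0 at an unadjusted p under 0.05), and 5 of 8 lymphocyte markers were positive (median 0.36, 2 at an unadjusted p under 0.05, as were 2.74% of all genes). Over both treatments 7 of 8 lymphocyte markers were negative (median -0.72, 2 at an unadjusted p under 0.05), and the median was -0.12 without the 3 livers. Hepatocyte markers were positive in 7 of 9 cases (median 0.47, and 0.31 without the 3 livers). Their summed levels did not overlap among GCV livers, at 117552 to 159401 CPM in females and 26950 to 92030 CPM in males, and overlapped among VEH livers, at 94093 to 126701 CPM and 41881 to 94263 CPM. All 8 stellate cell markers were negative (median -0.36, with Col1a1 at an unadjusted p under 0.05), and 7 of 8 were positive without the 3 livers (median 0.21). Of the sinusoidal endothelial and cholangiocyte markers 5 of 8 and 5 of 6 were negative (medians -0.30 and -0.51), with Fcgr2b at an unadjusted p under 0.05. The part of these markers in the differences between p16-3MR sexes was not tested.

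No gene of the 5 lists of genes that act with these proteins was called for GCV in p16-3MR mice by edgeR, DESeq2 or limma-voom. Of 10 other apolipoprotein and serum amyloid genes tested, 6 were higher and 4 lower in GCV-treated females (median 0.31), and of 19 genes of very-low-density lipoprotein assembly and secretion 10 were higher and 9 lower (median 0.02). Of 13 genes of lipoprotein receptors and clearance 2 were higher and 11 lower (median -0.30), and of 16 genes of lipases, lipid transfer and efflux 9 were higher and 7 lower (median 0.23). Of 22 transcription regulators of apolipoprotein genes 10 were higher and 12 lower (median -0.10). In the order given, 0, 3, 2, 0 and 2 genes were at an unadjusted p under 0.05 in females, where 7.37% of all genes were. In GCV-treated males the medians were 0.26, -0.17, 0.08, -0.19 and -0.20, again with 0 called by edgeR, and 1 gene in all, a regulator, was at an unadjusted p under 0.05, as were 1.91% of all genes. With the 3 livers left out, the female medians were 0.43, 0.17, -0.07, 0.06 and -0.07, with 9 of the 10 other apolipoprotein genes and 5 of the 13 receptor genes higher. At an unadjusted p under 0.05 were then 0, 3, 6, 3 and 1 genes, where 9.55% of all genes were. The male medians were then 0.51, -0.06, 0.07, -0.13 and -0.09, with 2, 4, 1, 4 and 2 genes at an unadjusted p under 0.05, where 6.66% of all genes were. No list gene was called for GCV by edgeR without the 3 livers.

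The genes whose levels ran most like the mean of the 10 members over the 12 p16-3MR livers were Masp2 (Pearson's r = 0.986), Slc23a1 (0.979), Klkb1 (0.978), Adtrp (0.976) and Cab39l (0.974), of 7065 genes with a mean of at least 10 CPM. The points share library, depth and the livers that stand apart. Only 1 of the 5 remained in the first 5 without female 33, and 2 did by Spearman's measure.

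In wild-type livers, which lack the target of GCV, Apoa4 was 273.6, 295.4 and 325.7 CPM in GCV-treated females and 241.3, 287.3 and 358.1 CPM in VEH-treated females, so the VEH livers spanned the GCV livers. In males it was 161.9, 171.3 and 467.6 CPM with GCV and 124.0, 235.0 and 238.2 CPM with VEH. One GCV-treated male, replicate 3, was above all others. The log2 fold change was 0.01 (SE 0.28, interval -0.54 to 0.57) in females and 0.42 (SE 0.29, interval -0.15 to 0.98) in males, with adjusted p = 1.0 and 0.889 by edgeR. Without that male the male value was -0.26.

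Apoa5 in wild-type livers was 975.8, 961.4 and 1067 CPM in GCV-treated females and 1155, 974.6 and 1124 CPM in VEH-treated females. In males it was 720.3, 894.0 and 853.3 CPM with GCV and 840.4, 964.2 and 963.1 CPM with VEH. Mttp lay between 102.3 and 129.5 CPM in the 6 females and between 108.6 and 156.1 CPM in the 6 males. Treatment groups of all 3 wild-type members overlapped in both sexes, where 5.05% of all genes in females and 4.48% in males were higher in every GCV liver and 4.95% and 4.37% were lower, and the 4 log2 fold changes of Apoa5 and Mttp lay between -0.17 and 0.07. By edgeR 0 of the 3 members passed for GCV in females, where 0.00791% of all genes passed, in males (0.0%) or for the difference (0.00791%). None was at an unadjusted p under 0.05, as 4.56%, 5.06% and 4.45% of all genes were, and DESeq2 called 0 of them, against 0.321%, 0.00791% and 0.00791% of the genes it tested.

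Among the 3 wild-type genes, Apoa5 was called between the sexes and none was called for treatment. It was higher in females at 961.4 to 1155 CPM against 720.3 to 964.2 CPM in males, with an overlap of a single female and 2 males. Its log2 difference over both treatments was 0.26 (SE 0.07), and it was called with adjusted p = 0.0341 by edgeR, as were 7.94% of all genes in this comparison, and by DESeq2 (adjusted p = 0.0133), which called 9.73% of the genes it tested. Among VEH livers alone, every female was above every male for Apoa4 and Apoa5, as in 9.82% of all genes. Among GCV livers this held for Apoa5 (9.41% of all genes), and for Mttp every female was below every male (8.98%). The call was lost in 6 of the 12 fits that left out 1 liver, in females GCV 4, 5 and 6 and VEH 4 and 6 and in the male GCV 1, with adjusted p up to 0.100, and among VEH livers alone (adjusted p = 0.289, where 3.82% of all genes were called). Mttp had a log2 difference of -0.26 (SE 0.09, adjusted p = 0.102 by edgeR), and of its 18 alternatives it passed in 1, without the VEH-treated male 1 (adjusted p = 0.0191). Apoa4 had 0.36 (SE 0.20, adjusted p = 0.336 by edgeR), and 0.70 with adjusted p = 0.00182 without the GCV-treated male 3. The summed levels of 4 stellate cell markers (276.5 to 340.0 CPM in females, 215.7 to 268.7 CPM in males) and 3 hepatocyte markers (13629 to 15295 against 17423 to 19251 CPM) did not overlap between the sexes. Of all single genes, 2.31% were higher and 2.46% lower in every female than in every male. The hepatocyte sum holds Serpina1c, with group means of 4400 and 4406 CPM in females and 7033 and 7455 CPM in males. The stellate cell sum holds Dcn, at 228.1 and 222.2 against 179 and 190 CPM. Among the markers Serpina1c was lower and Lrat, Dcn and Ptprc were higher in females by edgeR. DESeq2 and limma-voom did not call Ptprc, limma-voom also called Vsig4 and Oit3, and among VEH livers edgeR called Serpina1c and Ptprc but not Lrat and Dcn. The 5 sinusoidal endothelial markers (110.8 to 157.9 against 105.8 to 114.1 CPM), 8 Kupffer cell and macrophage markers (309.4 to 454.8 against 256.9 to 383.9 CPM), 4 lymphocyte markers (11.97 to 23.45 against 5.25 to 13.2 CPM, with Cd8a at 0 in VEH-treated males) and 4 cholangiocyte markers (2.75 to 9.07 against 2.13 to 4.31 CPM) overlapped. The part of these markers in the differences was not tested.

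**Figure D5:**
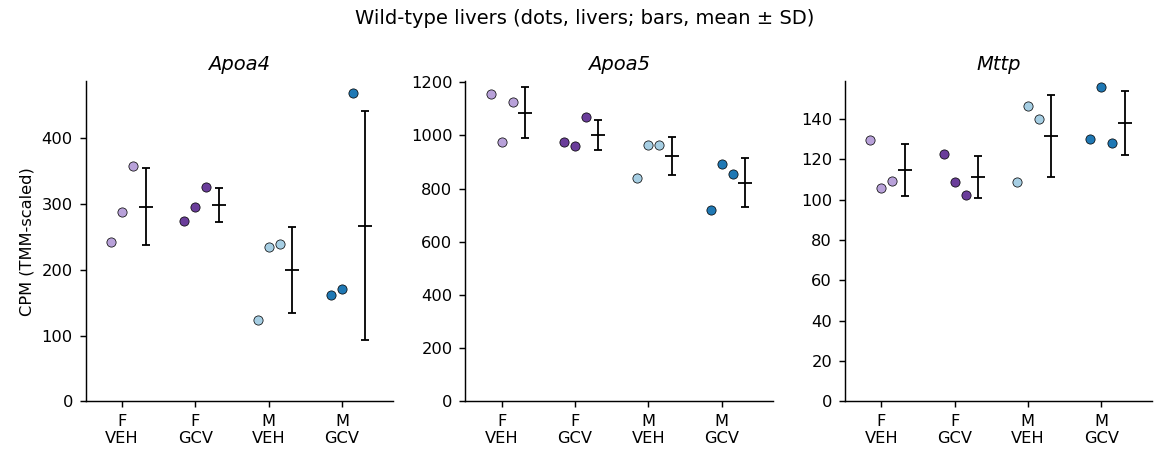
CPM (TMM-scaled) of Apoa4, Apoa5 and Mttp in the 12 wild-type livers by sex and treatment; dots are livers and bars the mean ± SD of 3, with axes from 0. Apoa5 lies at 961.4 to 1155 CPM in females and 720.3 to 964.2 CPM in males, and the treatment groups overlap in all 3 genes.

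Partner genes of the lists that were read in wild-type livers differed by sex in 9 cases by edgeR. Lipc, the hepatic lipase, was higher in females (169.0 to 197.1 CPM) than in males (104.6 to 118.7 CPM), a log2 difference of 0.71 (SE 0.07, adjusted p = 2.94e-07). Tm6sf2, which takes part in the lipidation of secreted particles, was higher in females by 1.22 (SE 0.15, adjusted p = 7.15e-06). Dgat2, which makes triglyceride, was higher by 0.28 (adjusted p = 0.0196), Cd36, a fatty acid transporter, by 0.62 (adjusted p = 0.0333), and the regulators Ppargc1a and Foxa2 by 0.61 and 0.47 (adjusted p = 0.00823 and 0.0181). Angptl8, an inhibitor of lipoprotein lipase, had a log2 difference of -1.17 (adjusted p = 0.0283). Saa2 and Saa4, serum amyloid genes of high-density lipoprotein, had -5.94 and -0.88 (adjusted p = 4.93e-04 and 0.0109), with Saa2 at 15.7 to 29.9 CPM in females and at 18.3 to 4292 CPM in males, an uneven spread among males. These were 2 of 2 other apolipoprotein genes, 2 of 13 assembly genes, 1 of 7 receptor genes, 2 of 7 lipase and transfer genes and 2 of 14 regulators that could be read, against 7.94% of all genes. By DESeq2 Saa4 and Angptl8 were not called, and by limma-voom Saa2, Cd36 and Angptl8 were not. Both also called P4hb, Surf4 and Creb3l3, and limma-voom called Nr1h2. Among VEH livers alone edgeR called Saa2, Tm6sf2, Lipc and Foxa2 and none of the other 5. Between p16-3MR females and males, 0 genes of any of the lists were called by edgeR, where 0.303% of all genes were, or by limma-voom. DESeq2 called 1 there, the receptor gene Vldlr. Without the 3 livers that stand apart, edgeR called 1 receptor gene and 1 regulator between the p16-3MR sexes.

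In wild-type livers the genes most like the mean of Apoa4, Apoa5 and Mttp were Arhgap18 (Pearson's r = 0.890), Mtmr2 (0.876), Cyp3a11 (0.856), Sec14l2 (0.835) and Rpl36a-ps1 (0.833), of 4342 genes with a mean of at least 10 CPM. All 5 dropped out of the first 5 when the GCV-treated male 3 was left out.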

How the data were processed

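Liver RNA of 12 p16-3MR and 12 wild-type mice was sequenced as Smart-3SEQ libraries, which read the 3′ ends of transcripts. The submitters' processing notes name FastQC 0.11.9, Trim Galore 0.6.10, Salmon 1.10.3 and the build mm10. From these the authors made estimated counts, summed them to genes with tximport, left out genes of fewer than 3 reads and deposited whole numbers that are not scaled. In the study they were tested with DESeq2. In p16-3MR livers the totals ran from 5005760 to 7160172, and in wild-type livers from 3084517 to 5667904. A floor of 3 counts, which allows for counting error alone, lay at 0.419 to 0.599 CPM in the former and at 0.529 to 0.973 CPM in the latter.

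Gene IDs were given symbols (21698 of 21755), and wild-type labels, which lack 9 lower-case letters, were used where they belong to a single symbol (10496 of 12643). Each table was fitted alone with edgeR 4.0.16 in R 4.3.3: TMM scaling, 4 group means over 12 livers, and quasi-likelihood tests. P-values were adjusted by Benjamini-Hochberg across every gene tested in that table, and a gene was called when the adjusted value was under 0.05. Contrasts were GCV minus VEH in each sex, the difference between these, and females minus males averaged over treatments. Log2 CPM used a prior count of 2. P-values set a difference between groups against the spread of livers within groups, estimated over all 12 livers of a table and moderated across genes. The livers that stand apart thus enter the tests of both sexes. Groups do not overlap where every liver of one is above every liver of the other in CPM. The fit was tested on simulated data.

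Alternatives were DESeq2 1.42.0, its size factors in edgeR, filterByExpr, limma-voom (limma 3.58.1) with quality weights, removal of mitochondrially encoded genes, only the 6 livers of a sex, VEH livers only, a replicate block in wild-type mice, and each liver left out in turn. Removal of the 3 livers that stand apart was chosen after seeing the data, marker sums included. It took a liver from each p16-3MR group except the VEH-treated females. Summaries were made with pandas 2.3.3, numpy 2.4.6 and scipy 1.17.1 under Python 3.11.15, and figures with matplotlib 3.10.9. The members and the gene lists were chosen with earlier results of these data known. Named genes are the 10 members, list genes called in a comparison (up to 10 per list), and the 5 genes most like the members' mean centred log2 CPM. Coordinates are from GENCODE M21 (GRCm38). The antisense gene Gm10680 overlaps Apoa4 with 0 to 8 counts per liver, and Trmt10a overlaps Mttp on the other strand with 1 to 41; whether counting used strand is not given in the sources used here.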

Additional observations from a re-analysis of the deposited data

Results flagged for a closer look

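Apoa4 in p16-3MR livers was marked because all GCV livers lay above all VEH livers in females and below them in males. The log2 fold change in females minus that in males was 2.83, which did not pass the adjusted threshold by edgeR (adjusted p = 0.976) and passed by DESeq2 (adjusted p = 0.00274).

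Apoa4 was marked a second time because VEH-treated females and males did not overlap in either table, in opposite directions. The log2 difference, females minus males, was -1.05 in p16-3MR livers (adjusted p = 1.0 by edgeR) and 0.57 in wild-type livers (adjusted p = 0.364 by edgeR). The difference between the tables was not tested, and genotype, age, length of treatment and batch cannot be told apart there.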

How the results depend on the processing

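Scaling by DESeq2's size factors, filterByExpr and removal of mitochondrially encoded genes kept the direction and the side of the threshold of all 36 gene values each. DESeq2 kept 34 of 36 and moved 2, both of Apoa4, past the threshold, so that 1 member was called in p16-3MR females and 1 for the difference between the sexes. Genes called in p16-3MR females numbered 90 by DESeq2, 7 by limma-voom, 3 with only the 6 livers of the sex and 4 without the 3 livers that stand apart, against 0 by edgeR. In p16-3MR males they numbered 5, 145 by limma-voom and 5 without the 3 livers, and for the difference 3, 1 and 2. Between p16-3MR females and males they numbered 196, 215 and 178, and 26 in VEH livers only, against 66. In wild-type females, against 1, DESeq2 gave 17, filterByExpr 0, limma-voom 3 and only the 6 livers 44. In wild-type males DESeq2 gave 1 against 0, and for the wild-type difference filterByExpr gave 0 against 1. In VEH livers only, 483 genes and 0 members were called between wild-type sexes, against 1004 and 1. Without the 3 livers the log2 fold change turned to 0.17 (Apoa2), 0.15 (Apoc1), 0.13 (Apoe) and 0.25 (Apom) in females and to 0.13 (Apoa1) and 0.0786 (Apoa2) in males. By limma-voom it turned to 0.0201 (Apoc1) in females, to 0.0874 (Apoa1), -0.22 (Apoc1), -0.42 (Apoc3) and -0.17 (Apoe) in males, and in wild-type livers to -0.0031 (Apoa4, females) and -0.0099 (Mttp, males). Apoa4 between p16-3MR sexes turned to -1.05 in VEH livers only. The cause of these changes was not tested.

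With each liver left out in turn, genes called ranged from 0 to 1 in p16-3MR females and in p16-3MR males, from 0 to 12 in wild-type females, from 0 to 46 in wild-type males and from 0 to 17 for the wild-type difference. Members called between wild-type sexes ranged from 0 to 2. Log2 fold changes that changed sign in p16-3MR females ranged from -0.39 to 0.15 (Apoa2), -0.43 to 0.13 (Apoc1), -0.36 to 0.11 (Apoe), -0.76 to 0.22 (Apom) and -0.29 to 0.43 (Mttp). In p16-3MR males they ranged from -0.31 to 0.32 (Apoa1), -1.20 to 0.43 (Apoa2), -0.66 to 0.46 (Apoc1), -0.88 to 0.54 (Apoc3), -0.19 to 0.21 (Apoe) and -0.56 to 0.039 (Apom). In wild-type females they ranged from -0.11 to 0.18 (Apoa4) and -0.12 to 0.0499 (Mttp), in wild-type males from -0.26 to 0.67 (Apoa4) and -0.0513 to 0.15 (Mttp), and for the wild-type difference from -0.66 to 0.27 (Apoa4), -0.0364 to 0.12 (Apoa5) and -0.20 to 0.0039 (Mttp).

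Wild-type GCV and VEH livers share replicate numbers. Deviations of same-numbered livers correlated at -0.0997, -0.0509 and 0.0047 in females and at 0.319, 0.382 and -0.161 in males. Livers of other numbers correlated at -0.115 to 0.164 in females and at -0.519 to 0.365 in males. With 3 livers a group, these values cannot show whether same-numbered livers were paired. With the replicate block 106 genes were called in females, 68 in males and 79 for the difference, and no call of a member changed.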

Other observations

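A single row of the wild-type table has a label shared by Apoa1 and Apba1, and it was assigned to neither. Its level was 7278 ± 272 CPM in GCV-treated females and 10361 ± 1210 CPM in VEH-treated females (SD, n = 3). These groups did not overlap, and 4.95% of all genes were likewise lower in every GCV-treated female. In males the level was 11190 ± 717 CPM with GCV and 11088 ± 659 CPM with VEH. The log2 fold change was -0.51 (SE 0.09) in females, with adjusted p = 0.087 by edgeR, and 0.01 (SE 0.09) in males. Over both treatments the row was lower in females, with a log2 difference of -0.36 (SE 0.06, adjusted p = 0.000575 by edgeR). In that comparison 7.94% of all genes were called. In the p16-3MR table, where the genes have rows of their own, Apba1 had 0 to 26 counts per liver and Apoa1 had 7842 to 50482.

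The row shared by Apoc3 and Apobec3 was 4683 ± 308 and 4790 ± 202 CPM in GCV- and VEH-treated wild-type females and 3985 ± 487 and 3968 ± 177 CPM in males. Its log2 difference between the sexes was 0.25 (SE 0.07, adjusted p = 0.0193 by edgeR), where 7.94% of all genes were called. In p16-3MR livers Apobec3 had 15 to 351 counts and Apoc3 2237 to 15086. The rows shared by Apoa2 and Apba2, by Apoc1 and Apobec1, and by Apob, Apoe, Apom and other symbols (13 in all) were not called for treatment or sex by edgeR.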
